A study of Mus musculus with 2 samples.

Results

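The genes described here are 42 genes of T cell receptor (TCR) signalling in mouse regulatory T cells (Treg cells, the Foxp3-bearing CD4+ T cells that hold immune responses in check). They were chosen by name, as the receptor complex with its kinases and adaptors and as the proteins that restrain it. All 42 were among the 24081 gene symbols of the deposited table, and all 42 passed the expression floor, a mean of 20 raw reads over both libraries, which 10899 genes passed. For the text, 22 of them were set down as activating, 19 as brakes, and the activation marker Cd69 was kept apart.

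The TCR binds antigen, and the CD3 chains that travel with it carry the tyrosines that the kinase Lck phosphorylates and the kinase Zap70 then reads. Zap70 marks the scaffolds Lat and Lcp2, from which phospholipase C, Ras and NF-κB are switched on. Phosphatases, ubiquitin ligases, diacylglycerol kinases and the kinase Csk act against these steps. Treg cells need TCR signals for their activated, suppressive state.

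RNA was sequenced from 2 libraries of Treg cells of 5-week-old C57BL/6 mice, sorted from spleen and lymph nodes by CD4 and YFP. In both, the mice carried Foxp3cre/wt, a Cre recombinase driven by Foxp3 on 1 allele beside a wild-type Foxp3 allele. Foxp3 lies on the X chromosome, so such mice also hold Treg cells without Cre, and YFP picks those with it. The control library, titled WT, came from mice with 1 floxed and 1 wild-type allele of a gene needed for SUMOylation (the coupling of SUMO, a small protein, onto target proteins), and the library titled KO from mice with 2 floxed alleles. The WT cells therefore carry Cre and a floxed allele too. The study asks whether Treg cells need SUMOylation. Each library pooled cells of 5 to 10 mice, with 1 library per group, so nothing below has a replicate check and no test was run. Both samples carry a wild type genotype label, so every direction rests on the titles.

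Gene reads came to 11662867 for WT and 23789264 for KO. A gene at equal level has 1.93 reads in KO for each read in WT. Levels are given on the RPKM scale, as reads per kilobase of merged exons for a library scaled to 1000000 reads, which allows comparison between genes. Where a sentence gives 2 values without naming the libraries, the first is WT and the second KO. Ratios are KO over WT, and intervals are exact 95% intervals for counting error only. Both libraries carried the defining markers of the labelled cell: all 8 Treg markers passed the floor. Foxp3 had 8540 reads in WT and 30579 in KO. The ratios of these markers ran both ways. Foxp3 (1.85-fold), Lrrc32 (2.36-fold), Il2ra, Cd4, Tnfrsf18 and Cd3e were above their WT level in KO. Ctla4 (1712 and 2056 reads, 0.621-fold) and Ikzf2 (3859 and 4706 reads, 0.631-fold) were below it.

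Markers of other cells were present. The 8 B cell markers summed to 148 of 1000000 scaled reads in WT and 118 in KO, and the 5 monocyte and macrophage markers in the table to 412 and 383. Of these, Csf1r had 3192 and 5440 reads and Lyz2 1474 and 2924. In raw reads, not set against gene length, Csf1r thus lay above Cd3d and Zap70 in WT. In KO it lay slightly below both (5643 and 5574 reads). The summed CD8 T cell markers were at 33.6 and 41.5, those of NK cells at 8.43 and 8.98 (Klra8 at 0 in both), and those of dendritic cells at 20.2 and 25.6. Erythroid markers summed to 14.3 and 5.57, with both globin genes at 0. Neutrophil and platelet markers had at most 46 summed reads in a library, and of the gamma delta T cell markers only Sox13 was in the table, with 0 and 7 reads. B cells and macrophages also express several of the 42 genes, and their part in the ratios was not tested. In such bulk samples, fewer cells of a type and less RNA per cell cannot be told apart.

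The TCR signalling genes differed little between the libraries. No member reached 1.5-fold in either direction with this scaling. When total gene reads set the scale, 4 were at least 1.5-fold lower (Ptpn22, Cd3g, Ubash3b and Sla), beside 6.95% of all expressed genes. With the scaling used here, 7.43% of all expressed genes lay at least 1.5-fold above the WT level in KO and 5.51% as far below it. Among the 9051 genes with a mean of at least 100 reads, these shares were 5.62% and 3.41%. A smaller limit was set at a log2 ratio of 0.32 either way, which is 25% above or 20% below the WT level. Past it, 3 members were higher (7.14% of the 42, against 19.8% of all expressed genes) and 5 were lower (11.9%, against 15.1%). Among the 7008 genes with at least as many reads as the least covered member, the shares were 17.0% higher and 10.4% lower, so the members' share of lower genes was slightly below or slightly above the background, depending on the genes it is set against. The 3 higher members were Dgkz, Rasgrp1 and Cd6, and the 5 lower members Ptpn22, Cd3g, Ubash3b, Sla and Malt1. Both sets mix activators and brakes. The calls of Rasgrp1 and Cd6 end with total gene reads as the scale (log2 ratios of 0.29 and 0.28), and those of Cd3g, Malt1 and Dgkz end once a trend on GC content and length is removed. The median log2 ratio was 0.07 over all members, 0.06 over the activators and 0.06 over the brakes, beside 0.01 over all expressed genes. These genes are deeply covered, so small ratios still fell outside counting error: the interval excluded 1 for 35 of 42 members (83.3%), against 54.7% of all expressed genes and 65.7% of those 7008 genes.

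**Figure D1:**
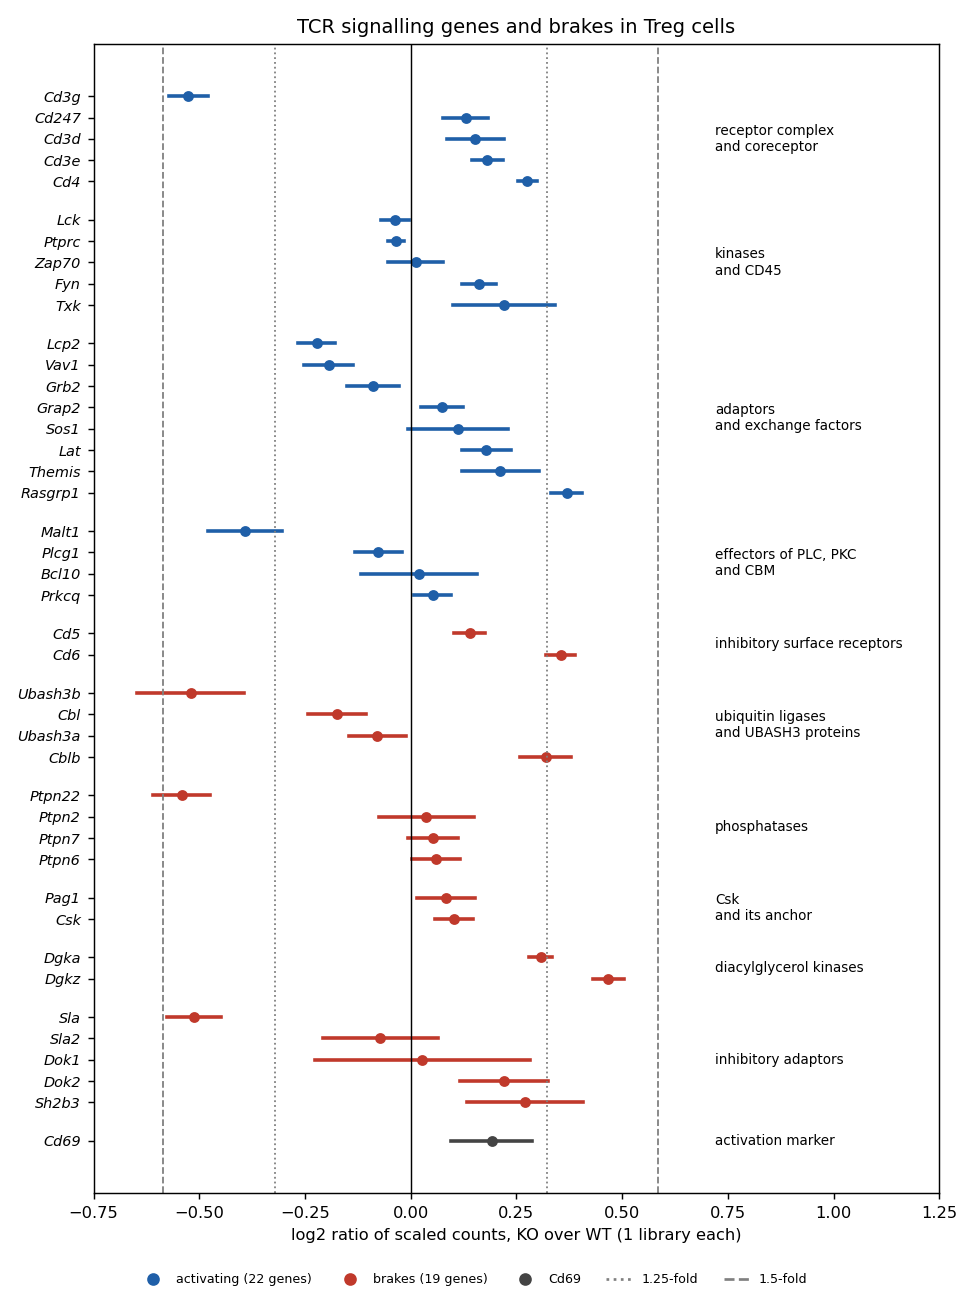
Log2 ratio of scaled counts, KO over WT, for each of the 42 genes, grouped by role, with 1 library per group. Points are ratios with a pseudocount of 1, bars are 95% intervals for counting error, dotted lines mark the smaller limit of 0.32 and dashed lines 1.5-fold. Every point lies inside the dashed lines, and the 4 lowest are Ptpn22, Cd3g, Ubash3b and Sla.

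The receptor chains did not keep their proportions. Cd3g, the CD3γ chain, had 6316 reads in WT and 8484 in KO. Its level was 161 in WT and 112 in KO, 1.44-fold lower (1.39 to 1.49). The other chains lay slightly above 1 in KO. Cd3d (CD3δ) had 2625 and 5643 reads, 1.11-fold higher (1.06 to 1.16). Cd3e (CD3ε) had 8800 and 19294 reads, 1.13-fold higher (1.11 to 1.16). Cd247, the ζ chain, had 4175 and 8835 reads, 1.09-fold higher (1.05 to 1.14). Exons of Cd247 overlap those of Pou2f1 on the opposite strand over 56.4% of their length, and the strand setting of the counting is not known here, so its count is less certain. Of the 4 chains, Cd3g was the 1 below its WT level. Its share of their summed level was 30.6% in WT and 21.5% in KO. The ratio of Cd3g to Cd3d reads was 2.41 in WT and 1.5 in KO, a 1.60-fold lower ratio (1.51 to 1.69), and it was 1.63-fold lower (1.57 to 1.70) against Cd3e and 1.58-fold lower (1.5 to 1.65) against Cd247. Such comparisons between genes of the same libraries do not depend on the scaling.

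Cd3g, Cd3d and Cd3e lie side by side on chromosome 9 (mm10), Cd3g at 44969572 to 44980431, Cd3d at 44981786 to 44987339 and Cd3e at 44998740 to 45009627. Cd3g and Cd3d are read away from each other, from start sites 1355 bp apart. Their promoter windows are shown because these neighbours differ in ratio within 1 gene cluster. Each runs from 250 bases before the start site to 50 after it, from RefSeq on GRCm38.p6, 5′ to 3′ on the gene's own strand. Cd3g is chr9:44980382-44980681 on the minus strand, Cd3d chr9:44981536-44981835 on the plus strand and Cd3e chr9:45009562-45009861 on the minus strand. Capitals mark the Ets core GGAA and the Runx motif TGTGGT on either strand.

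Cd3g: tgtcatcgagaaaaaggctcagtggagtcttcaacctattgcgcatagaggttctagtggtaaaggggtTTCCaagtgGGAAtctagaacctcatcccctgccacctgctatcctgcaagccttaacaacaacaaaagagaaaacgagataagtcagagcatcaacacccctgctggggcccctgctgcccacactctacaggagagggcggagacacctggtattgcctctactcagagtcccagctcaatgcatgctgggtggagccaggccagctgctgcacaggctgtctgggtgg
Cd3d: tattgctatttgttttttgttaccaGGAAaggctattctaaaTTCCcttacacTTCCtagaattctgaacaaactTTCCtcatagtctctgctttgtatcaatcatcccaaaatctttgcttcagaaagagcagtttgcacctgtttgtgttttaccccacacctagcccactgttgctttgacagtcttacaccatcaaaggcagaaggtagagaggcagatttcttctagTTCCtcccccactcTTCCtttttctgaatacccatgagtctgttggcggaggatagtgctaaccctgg
Cd3e: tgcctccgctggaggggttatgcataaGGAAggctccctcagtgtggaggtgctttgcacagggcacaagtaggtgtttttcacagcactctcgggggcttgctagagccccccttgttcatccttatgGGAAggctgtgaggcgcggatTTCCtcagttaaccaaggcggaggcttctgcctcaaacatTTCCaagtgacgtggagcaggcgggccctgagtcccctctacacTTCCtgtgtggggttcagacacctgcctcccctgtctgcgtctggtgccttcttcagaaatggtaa

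The Ets core occurred 2 times in the Cd3g window, 6 times in the Cd3d window and 5 times in the Cd3e window, and the Runx motif in none of them. Of all 32851 RefSeq windows of this length, 96.0% held the Ets core and 16.8% the Runx motif. The median count of the Ets core was 3 over all these windows and 4 over the 48 windows of members. A match to so short a motif is a description of the letters.

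Cd4, the coreceptor that brings Lck to the receptor, was the most abundant member, at 481 in WT and 582 in KO (23224 and 54375 reads). It was 1.21-fold higher (1.19 to 1.23). Lck and Zap70 were nearly level as scaled. Lck, which starts the cascade, was at 313 and 305 (1.03-fold lower, 1.00 to 1.05), and Zap70 at 79.8 and 80.4, where the interval spans no difference, though Zap70 was at -0.29 on the log2 scale with the GC trend removed. Ptprc, which encodes CD45, the phosphatase that keeps Lck ready, had 34949 and 65964 reads (1.02-fold lower, 1.01 to 1.04), and its ratio is slightly above 1 when that trend is removed. Fyn, the other Src family kinase of T cells, was 1.12-fold higher (1.09 to 1.15). Txk, a Tec family kinase, was 1.17-fold higher (1.07 to 1.27) and had the lowest level of all members in WT, 6.23. Its merged exons span 10955 bp against 5303 bp for its longest transcript, so that rank depends on the length used. Against Fyn, Lck was 1.15-fold lower in KO than in WT (1.11 to 1.19).

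**Figure D2:**
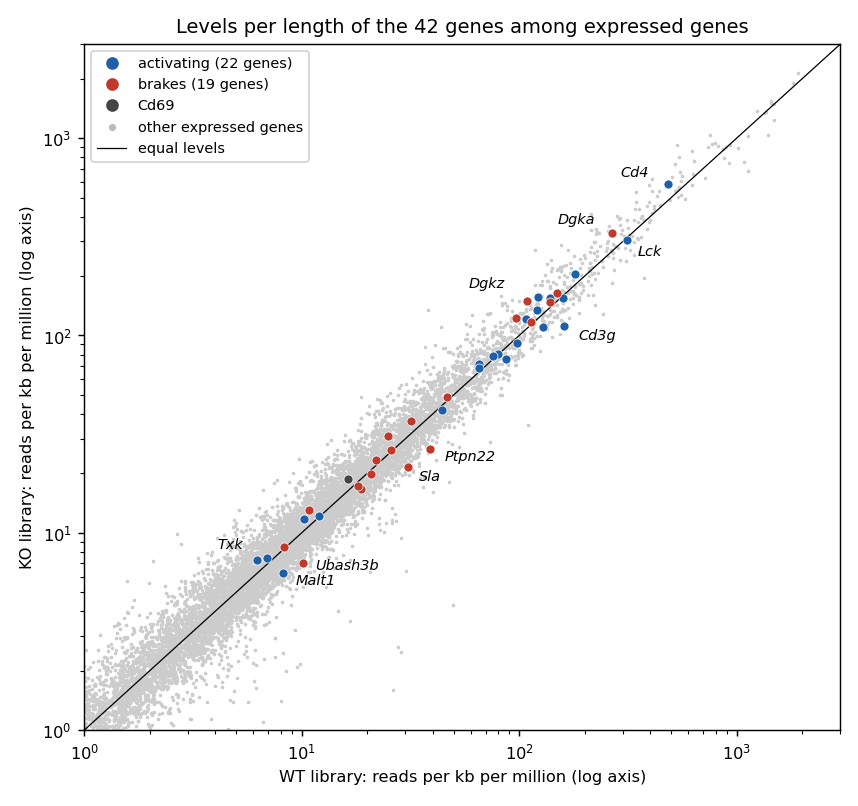
Level of each gene in the WT library (x axis) and the KO library (y axis), on the RPKM scale of scaled reads, on log axes, with the line of equal levels. Grey points are other expressed genes, and those outside the axes are not drawn. The 42 genes run from 6.23 for Txk to 481 for Cd4 in WT and follow the line closely.

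Among adaptors and exchange factors the ratios ran both ways. Rasgrp1, the exchange factor that turns diacylglycerol into Ras activation, had 8166 reads in WT and 20391 in KO. Its level was 122 and 157, 1.29-fold higher (1.26 to 1.33). Lcp2, which encodes the scaffold SLP-76, had 6906 and 11443 reads and was 1.17-fold lower (1.13 to 1.20). Vav1, which activates Rac, had 3860 and 6525 reads and was 1.14-fold lower (1.10 to 1.19). Lat, the membrane scaffold that works with SLP-76, was 1.13-fold higher (1.09 to 1.18), and the ratio of Lat to Lcp2 reads was 0.516 in WT and 0.681 in KO. With the GC and length trend removed Lat was at -0.04 on the log2 scale, and its difference to Lcp2 was 0.11 in place of 0.40. Grap2, which encodes GADS and bridges Lat to SLP-76, had a log2 ratio of 0.07, and Grb2, which brings Sos1 to Lat, one of -0.09. Sos1, the second Ras exchange factor here, was at 6.92 and 7.47, within counting error of no difference. Its level was thus a small fraction of that of Rasgrp1 in both libraries, with a ratio of Sos1 to Rasgrp1 levels of 0.0568 in WT and 0.0475 in KO. Themis, which binds the phosphatase SHP-1 and Grb2 and tunes signalling in thymocytes, was 1.16-fold higher (1.09 to 1.23).

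Downstream effectors held 1 member past the smaller limit. Malt1, the paracaspase that carries the signal to NF-κB, had 1776 reads in WT and 2618 in KO. Its level was 8.22 and 6.27, 1.31-fold lower (1.23 to 1.39). Its partner Bcl10 had 654 and 1282 reads and lay within counting error of no difference (1.01-fold, 0.922 to 1.12). Plcg1, the phospholipase, had a log2 ratio of -0.08 and Prkcq, which encodes PKCθ, one of 0.05. The Bcl10 to Malt1 read ratio was 0.368 in WT and 0.490 in KO, 1.33-fold higher (1.19 to 1.49).

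As scaled, the brakes held the lowest and the highest ratio of the 42 genes, and with the GC and length trend removed the highest was that of the activator Rasgrp1. The lowest as scaled was that of Ptpn22, the phosphatase that acts on Lck and Zap70 (chromosome 3, 103859795 to 103912247). It had 3159 reads in WT and 4195 in KO, with levels of 38.9 and 26.7, 1.46-fold lower (1.39 to 1.53). The other phosphatases did not share this. Ptpn6 (SHP-1), Ptpn7, which acts on MAP kinases, and Ptpn2, which acts on Lck, Fyn and JAK kinases, had log2 ratios of 0.06, 0.05 and 0.04. With the trend removed they were at -0.03, 0.05 and 0.27. The Ptpn6 to Ptpn22 read ratio was 1.20 in WT and 1.82 in KO, and that of Ptpn2 to Ptpn22 0.304 and 0.455.

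Ubash3b, which encodes Sts-1, a phosphatase that acts on Zap70 (chromosome 9, 41011098 to 41161697), had 887 and 1196 reads. Its level was 10.1 in WT and 7.05 in KO, 1.43-fold lower (1.31 to 1.57). Its relative Ubash3a (Sts-2) had 2813 and 5151 reads and was 1.06-fold lower (1.01 to 1.11). Ubash3a was the more abundant of the pair, 2.07 times the level of Ubash3b in WT and 2.81 times in KO. The ubiquitin ligases also parted. Cblb, a brake on T cell activation without costimulation, had 3113 and 7510 reads and a log2 ratio just inside the smaller limit (1.20-fold to 1.30-fold), while Cbl had 2775 and 4754 reads and was 1.13-fold lower (1.08 to 1.18). The Cbl to Cblb read ratio was 0.891 in WT and 0.633 in KO, 1.41-fold lower (1.32 to 1.5).

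Sla, which encodes SLAP, an adaptor that leads CD3 chains to degradation with Cbl (chromosome 15, 66780819 to 66831829), had 3392 and 4598 reads. Its level was 30.8 in WT and 21.6 in KO, 1.43-fold lower (1.36 to 1.49). Its relative Sla2 had 674 and 1240 reads and lay within counting error of no difference (1.05-fold lower, 0.955 to 1.16). Of the other inhibitory adaptors, Dok2, which recruits a Ras inhibitor, had a log2 ratio of 0.22, and Sh2b3, which encodes Lnk, was 1.21-fold higher (1.10 to 1.33). Dok1, the least covered member with 196 and 386 reads, could not be told from no difference at this depth (1.02-fold, 0.855 to 1.22). With the trend removed Dok2 was at 0.00, Sh2b3 at 0.02 and Dok1 at -0.22 on the log2 scale. Exons of Sla2 overlap those of Rab5if on the opposite strand over 23.6% of their length.

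The diacylglycerol kinases, which remove the lipid that Rasgrp1 and PKCθ need, were both higher as scaled. Dgkz (chromosome 2, 91932824 to 91975864) had 8134 reads in WT and 21737 in KO. Its level was 108 and 150, 1.38-fold higher (1.35 to 1.42), the highest ratio of the 42 genes as scaled but a log2 ratio of 0.10 with the GC and length trend removed. Dgka had 15257 and 36518 reads, with levels of 267 and 331, 1.24-fold higher (1.21 to 1.26). Of the inhibitory surface receptors, Cd6 had 9201 and 22747 reads, with levels of 96.4 and 123, 1.28-fold higher (1.248 to 1.31). Cd5 had 8763 and 18666 reads and was 1.10-fold higher (1.07 to 1.13), but at -0.09 on the log2 scale with the trend removed. Csk, which places the inhibitory phosphate on Lck, and Pag1, its membrane anchor, had log2 ratios of 0.10 and 0.08, and their ratio to each other was the same within counting error (1.01-fold, 0.958 to 1.07). This holds as scaled: with the trend removed Csk was at -0.24 and Pag1 at 0.09, a difference of -0.33. Cd69, the activation marker, had 1275 and 2815 reads and was 1.14-fold higher (1.07 to 1.22).

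As sums, the brakes took 76967 reads in WT and 167037 in KO, and the activators 148097 and 298104. The ratio of brake to activator reads was 0.520 in WT and 0.560 in KO, 1.08-fold higher (1.07 to 1.09). Without the diacylglycerol kinases Dgka and Dgkz it was 0.362 and 0.365, 1.01-fold higher (0.997 to 1.02). These 2 genes have many reads and are higher in KO as scaled, so leaving them out had to lower it. Without Cd4 and Ptprc among the activators it was 0.856 and 0.940, 1.10-fold higher (1.09 to 1.11). No GC trend was removed from these sums.

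In all, 16 pairs of related genes were compared within the libraries, with Cd3g in 3 of them and Ptpn22 in 2. The interval excluded equal ratios for 14 pairs and spanned them for Csk with Pag1 and Dok1 with Dok2. No other gene pairs were set beside this count, and at this depth small differences lie outside counting error. As scaled, the differences of Cd3g to the other chains were the largest, followed by those of the phosphatases to Ptpn22. With the GC and length trend removed, Ptpn2 against Ptpn22 was the largest (0.74), ahead of Cd3g against Cd3e (-0.58) and Cbl against Cblb (-0.52).

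**Figure D3:**
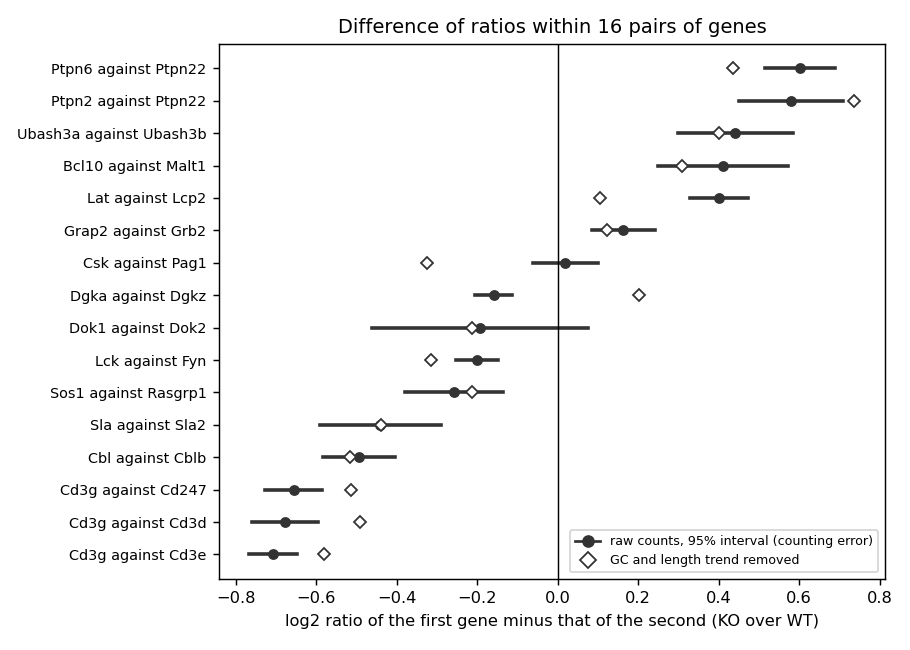
Difference between the log2 ratios (KO over WT) of 2 genes, the first minus the second, for 16 pairs, with 1 library per group. Filled points are from raw counts with 95% intervals for counting error, and open diamonds are after removal of the GC and length trend. Cd3g lies below each of the other chains by both measures, and Dgka against Dgkz lies below 0 by the first and above 0 by the second.

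Part of these ratios moved with base composition. Across 10851 expressed genes with a gene model, which are not independent replicates, the Spearman correlation of the log2 ratio with transcript GC content was 0.41. Over the 42 genes it was 0.17, over the brakes 0.45 and over the activators -0.01. With the trend removed it was 0.03 over all these expressed genes and -0.04 over the brakes. Over the 42 genes it was then -0.27 and over the activators -0.30. The trend was fitted over all genes, so the trend-removed values of the members are not free of a relation to GC content. The 5 lower members had a median GC content of 43.9%, those inside the smaller limit 50.4%, and the 3 higher ones 47.6%, with Dgkz the highest of these at 59.6%. After the fitted GC and length trend was taken out, 3 members lay below the smaller limit, Ubash3b (-0.51), Ptpn22 (-0.47) and Sla (-0.45). Cd3g was then at -0.28 and Malt1 at -0.27, inside the limit, and Dgkz at 0.10. Rasgrp1 (0.43) and Cd6 (0.38) were still above the limit, joined by Cd69 (0.41), Themis (0.34) and Cblb (0.32). Of all expressed genes, 14.5% lay above the limit by this measure and 13.4% below it. Against the other chains Cd3g was still lower, with differences in log2 ratio of -0.49 to Cd3d, -0.58 to Cd3e and -0.51 to Cd247.

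**Figure D4:**
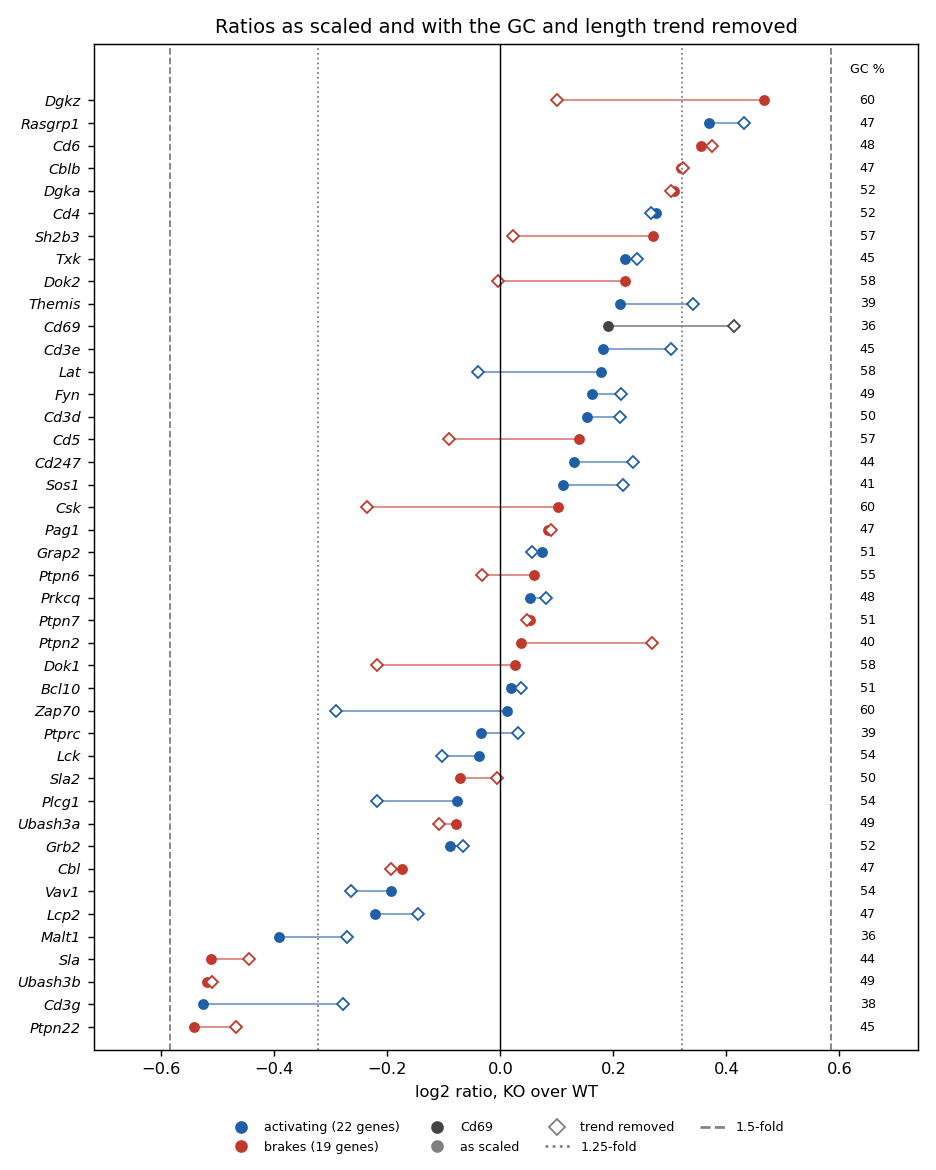
Log2 ratio, KO over WT, for each gene as scaled (filled) and with the GC and length trend removed (open diamonds), ordered by the scaled ratio, with transcript GC content in percent at the right. Ubash3b, Ptpn22 and Sla stay beyond the dotted line of the smaller limit by both measures, while Cd3g, Malt1 and Dgkz do not.

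Other genes of the pathway were taken from 2 further lists. Of 49 further signalling genes, 2 reached 1.5-fold upwards and 0 downwards, beside 7.43% and 5.51% of all expressed genes. Their median log2 ratio was 0.07. The 3 largest ratios were those of Rasgrp4, a relative of Rasgrp1 (114 and 389 reads, 0.82), Arhgef1 (12984 and 37845 reads, 0.59), and Akt1 (1773 and 5001 reads, 0.54). With the GC trend removed these were 0.61, 0.18 and 0.21. Of 44 further brakes, 41 were measured, 1 at least 1.5-fold higher and 5 lower, with a median of 0.04, beside 7.43% and 5.51% of all expressed genes. With the GC and length trend removed the counts were 2 and 3 and the median -0.01. Of all expressed genes, 4.95% were then at least 1.5-fold higher and 5.44% lower. Lpxn, the adaptor leupaxin, had 862 and 664 reads and was 2.51-fold lower (2.27 to 2.78). Dgkg, another diacylglycerol kinase, had only 37 reads in each library (1.93-fold lower, 1.19 to 3.14). The other diacylglycerol kinases of this list ran both ways. Dgkd (3657 and 10110 reads) was at 0.52, as for Dgka and Dgkz above its WT level, Dgke at 0.04 and Dgkh at -0.32. Socs1, an inhibitor of cytokine signalling, had 187 and 680 reads and was 1.88-fold higher (1.60 to 2.22).

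Genes that respond to TCR signals were mostly above their WT level. Of 25 measured, 8 were at least 1.5-fold higher and 1 lower, with a median of 0.36, where 7.43% of all expressed genes were that much higher. With the GC and length trend removed these counts were 4 and 1 and the median 0.22, beside 4.95% and 5.44% of all expressed genes. As scaled, Nr4a1 and Fos were at 0.93 and 0.87, and Cd83 at -1.08. Genes of activated and resting cells had opposite medians: 19 of 22 effector Treg genes were at least 1.5-fold lower in KO (median -2.14) and 4 of 18 resting T cell genes at least 1.5-fold higher (median 0.32), beside 5.51% and 7.43% of all expressed genes. With the trend removed 18 of the effector genes were that much lower and 1 of the resting genes that much higher (medians -2.11 and 0.36). The shares of all expressed genes were then 5.44% lower and 4.95% higher. The lists were chosen with earlier results of these data known, so their counts are descriptions and no independent support. What part these lists have in the ratios of the 42 genes was not tested.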

How the data were processed

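The build mm10 with TopHat2 2.0.3 and HTSeq is named per the submitters' processing notes. The authors deposited raw read counts per gene symbol, as whole numbers that were not normalized, in 1 table with a column per library. The sources used here do not give the gene annotation, read length or strand setting. The labels' protocols name Trizol extraction, oligo-dT capture of mRNA and a kit that starts from 1 ng of DNA. The counter's 5 category entries were left out of library sizes. Of all entries, reads aligned to several places took 15.6% in WT and 15.0% in KO, reads outside features 6.26% and 6.81%, and ambiguous reads 1.53% and 1.57%.

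Counts were scaled with TMM factors (1.03 for WT and 0.974 for KO, from edgeR 4.0.16, R 4.3.3). The log2 ratio used a pseudocount of 1 on counts brought to the mean effective library size. Folds and their exact conditional binomial (Clopper-Pearson) 95% intervals used no pseudocount. Differences between 2 genes used the odds ratio of 4 raw counts with a Woolf interval. Intervals treat reads as independent and cover counting error only. Since each group has 1 library, there are no tests or p-values. Exon lengths, overlaps and the GC content of the longest transcript came from GENCODE M21, which matched all 42 members. The GC and length trend was a lowess curve (statsmodels 0.14.6, span 0.3) on GC content and then on log length. The code was tested on simulated data. Alternatives were DESeq2 1.42.0 size factors, total gene reads, no floor or a floor of 100, pseudocounts of 5 and 0.5, and removal of the trend.

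Members and lists were chosen with earlier results of these data known. Every member is described, those past a log2 ratio of 0.32 either way (25% higher or 20% lower) with reads and intervals. From other lists the 3 largest absolute ratios were open to naming, and further diacylglycerol kinases are named beside Dgkg. The targeted gene is not reported here.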

Additional observations from a re-analysis of the deposited data

How the results depend on the processing

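DESeq2 size factors, both floors and both pseudocounts left the same 3 members at least 25% higher and the same 5 at least 20% lower. They moved no member out of its counting interval. Every member has a mean of at least 291 reads, so the floors could not change a member's ratio and the pseudocounts hardly could. Total gene reads shifted the median of all genes from 0.01 to -0.06 on the log2 scale. With them 4 members were at least 1.5-fold lower (Ptpn22 -0.62, Cd3g -0.60, Ubash3b -0.60, Sla -0.59) and 1, Dgkz, at least 25% higher, and the medians were -0.01 over all members, -0.01 over activators and -0.02 over brakes. Of all expressed genes 6.95% were then at least 1.5-fold lower and 5.72% higher. At the smaller limit, 15.1% were at least 25% higher and 20.7% at least 20% lower. Removal of the GC and length trend gave 5 members at least 25% higher and 3 at least 20% lower, with a brake median of -0.01. Of all expressed genes, 14.5% were then at least 25% higher and 13.4% at least 20% lower. Removal of the trend moved 24 members out of their counting intervals and total reads moved 30. Each of these 2 settings changed the sign of 8 small ratios; 29 of 42 members kept their sign under every setting run, the 8 past the smaller limit among them. Ptpn22, Ubash3b and Sla were at least 20% lower under every setting, and no member was at least 25% higher under all of them. With the floor at 100 reads, 18.0% of genes were at least 25% higher and 12.4% at least 20% lower. No paired analysis was possible because each group has 1 library.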

Other observations

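RefSeq gave 48 windows for 33 of the 42 genes, with a median GC content of 57.3% and a median of 7 CpG dinucleotides, against 52.7% and 7 over all 32851 windows. The Ets core was in 93.8% of the members' windows and the Runx motif in 14.6%.

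The AU-rich pentamer ATTTA, counted in the longest transcript of each gene, had a median of 3 both over the 42 members and over all expressed genes. It was most frequent in Malt1 (19), Cd69 (17), Sos1 (14) and Cbl (12), which had log2 ratios of -0.39, 0.19, 0.11 and -0.17.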
